A study of Mus musculus with 2 samples.

Results

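The genes described here are 9 glucocorticoid-induced genes, Fkbp5, Tsc22d3, Klf9, Txnip, Dusp1, Btg1, Bcl2l11, Bbc3 and Klf13, out of 27933 gene symbols counted in single cells of mouse lymph nodes. They were found by symbol in the gene lists of both libraries and were chosen by measured values, the ratio of their levels between the libraries in earlier results of these data. Their ratios between the libraries are therefore a description and support nothing further. The allogeneic group was lymph node immune cells of Balb/c recipients of a heart from a C57BL/6 donor, whose transplantation antigens the recipient lacks. The syngeneic group was the same kind of cells from Balb/c recipients of a Balb/c heart. Mice of both groups were 6 to 8 weeks old and both had undergone cardiac transplantation, so neither group is without surgery. Each group had 1 droplet library, prepared with Chromium chemistry that reads the 3′ ends of transcripts. The number of mice per library, the time after grafting, the hour of sampling and any drug treatment are not given in the sources used here. With 1 library a group no difference could be set against replicate spread or tested, and all intervals are exact 95% intervals that cover counting error only.

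Glucocorticoids enter cells and bind the glucocorticoid receptor, a nuclear receptor held in the cytoplasm by HSP90 and its co-chaperones. The bound receptor moves to the nucleus, raises transcription at palindromic response elements and lowers inflammatory transcription by other routes. In lymphocytes these hormones are known to slow proliferation, to change homing and, at high exposure, to cause death of immature and resting cells. The 9 genes stand for different arms of this response. Fkbp5 encodes a co-chaperone that lowers hormone binding by the receptor, and so closes a negative feedback loop. Tsc22d3 encodes GILZ, a leucine zipper protein that binds and inhibits inflammatory transcription factors, and Dusp1 encodes a phosphatase that inactivates MAP kinases. Klf9 and Klf13 encode Krüppel-like transcription factors. Txnip, which binds thioredoxin and lowers glucose uptake, and Btg1, an antiproliferative protein, go with quiescence. Bcl2l11 (BIM) and Bbc3 (PUMA) encode BH3-only proteins that promote apoptosis. Several of these genes also answer to other inputs: Txnip follows glucose, Bbc3 p53, Bcl2l11 FOXO factors, and Dusp1 stress and growth signals.

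The genes lie apart in the genome. In the GRCm38 build, Fkbp5 lies at chr17:28399094-28517527 and Dusp1 at chr17:26505590-26562128, both on the minus strand, and Tsc22d3 lies at chrX:140539528-140600659 on the minus strand. Klf9 lies at chr19:23141226-23168134, Txnip at chr3:96557957-96561883, Btg1 at chr10:96617006-96622809, Bcl2l11 at chr2:128126038-128162547 and Bbc3 at chr7:16308393-16318205, all on the plus strand. Klf13 lies at chr7:63886351-63938915 on the minus strand. All are annotated as protein coding.

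The promoters of these genes were searched for letters linked to the hormone response and to other inputs, in windows from 250 bases before to 50 bases after each start, taken from RefSeq for GRCm38. The 9 genes had 14 such promoters. The full glucocorticoid response element, 2 copies of AGAACA facing each other across 3 bases and searched like the other motifs on both strands, stood in none of them and in 0.00913% of 32851 promoters of all genes. The single copy AGAACA, which every full element also holds, stood in 1 of the 14 promoters (of Tsc22d3) and in 19.0% of all promoters. The cyclic AMP response element TGACGTCA stood in 1 (Dusp1; 1.79% of all promoters) and the E-box CACGTG, the letters bound by clock and MYC-type factors, in 3 (Fkbp5, Dusp1 and Bbc3; 7.15%). The AP-1 site TGACTCA (5.2%) and the D-box TTATGTAA (0.938%) stood in none. A match is a description of letters and not a site in use, and no match says only that these letters are not in these windows. The 4 stretches that hold a match are printed because they show which input letters lie close to a start. Capitals mark the motif (in Tsc22d3 the single copy read on the opposite strand, in Dusp1 first the cyclic AMP response element and then the E-box), and each is read 5′ to 3′ on the strand of its gene. The motifs begin 169 bases before the start in Fkbp5, 185 in Tsc22d3, 143 and 126 in Dusp1 and 64 in Bbc3.
Fkbp5, chr17:28486273-28486358, minus strand: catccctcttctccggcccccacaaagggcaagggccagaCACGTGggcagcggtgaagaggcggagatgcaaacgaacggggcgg
Tsc22d3, chrX:140600662-140600747, minus strand: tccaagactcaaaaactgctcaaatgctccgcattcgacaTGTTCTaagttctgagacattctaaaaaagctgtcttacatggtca
Dusp1, chr17:26508553-26508655, minus strand: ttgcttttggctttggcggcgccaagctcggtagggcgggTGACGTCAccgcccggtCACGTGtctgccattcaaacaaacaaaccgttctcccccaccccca
Bbc3, chr7:16310327-16310412, plus strand: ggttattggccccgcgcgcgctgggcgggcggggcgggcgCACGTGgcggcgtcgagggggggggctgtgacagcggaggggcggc

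Cells were sorted into 5 types by marker transcripts, and values are UMIs (unique molecular identifiers, each standing for 1 captured transcript) or CPM, the UMIs of a gene scaled to a common total over all UMIs of that cell type in that library. The CD4 T gate held 253 allogeneic and 1171 syngeneic cells, the CD8 T gate 439 and 2704, the Foxp3+ T gate 79 and 139, the B gate 218 and 1028 and the myeloid gate 102 and 110. T markers summed to 2784 to 3202 CPM in the allogeneic T gates and 3030.0 to 3426 CPM in the syngeneic T gates, and B markers to 5690 and 5580 CPM in the B gate. The libraries stood apart in depth: they held 8415043 allogeneic and 46486632 syngeneic UMIs, the barcode lists began at 150 and 3447 UMIs, and 60.2% and 99.9% of barcodes passed the cell filter. Median UMIs per cell in the lymphocyte gates were 2310 to 4064 (allogeneic) and 4373 to 5195 (syngeneic). RNA of other cells was also unequal. Haemoglobin genes took 0.357 to 0.439% of allogeneic and 0.00346 to 0.00371% of syngeneic UMIs in the lymphocyte gates, and the 7 neutrophil markers summed to 1127 to 1269 CPM against 5.53 to 21.6 CPM. Of all barcodes 66 were found in both libraries.

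**Figure D1:**
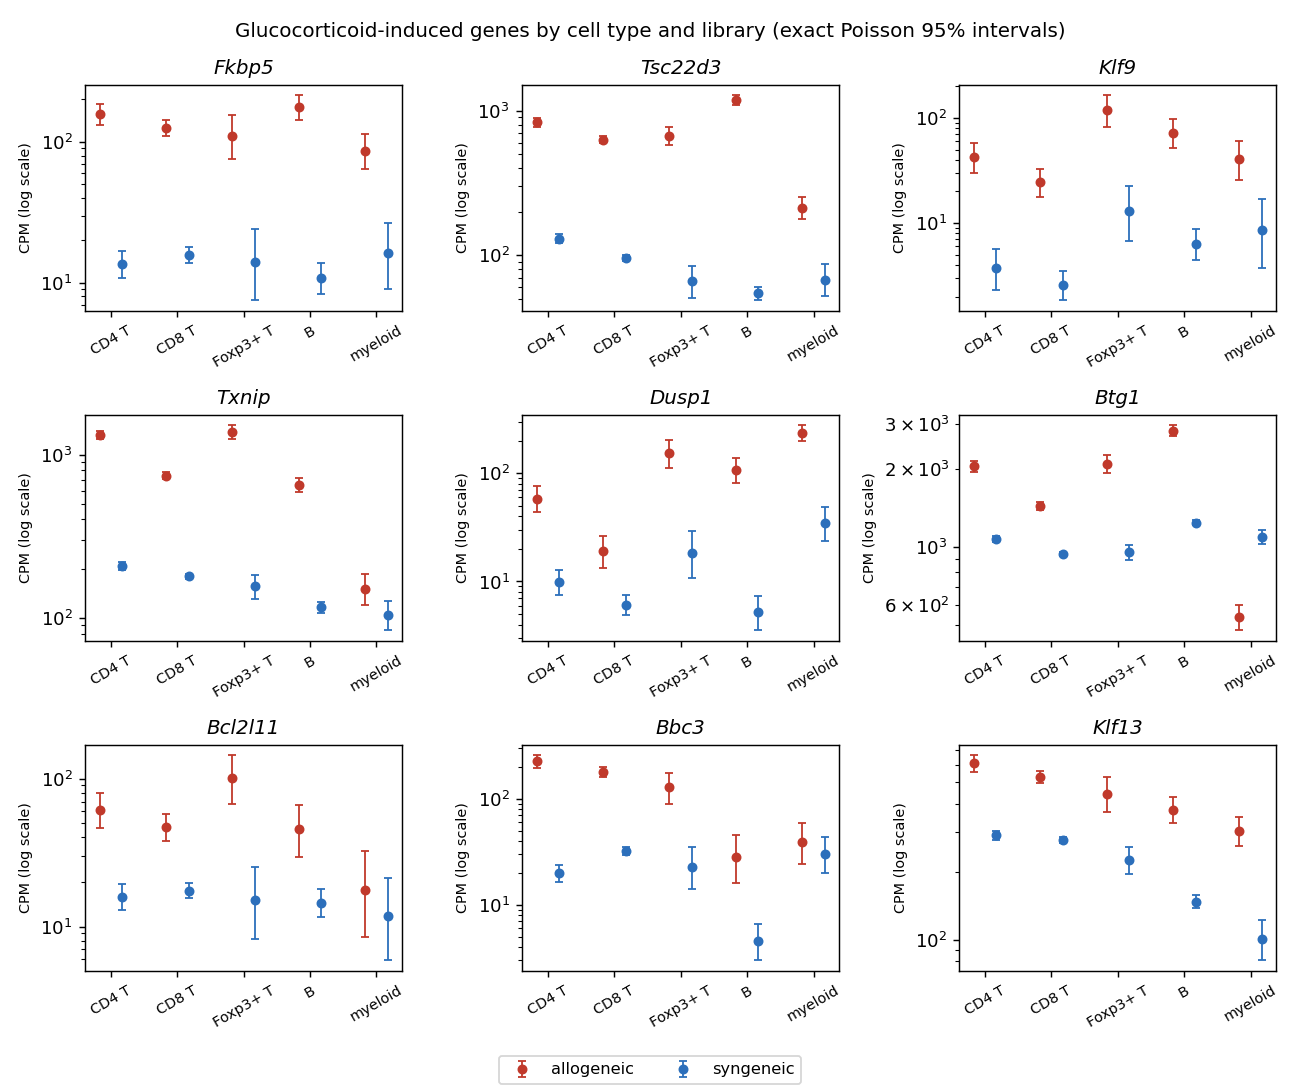
Level of each of the 9 genes in 5 cell types, in CPM on a log axis, in the allogeneic (red) and the syngeneic library (blue), with bars for exact Poisson 95% intervals (1 library a group). In CD4 T, CD8 T, Foxp3+ T and B cells each red point lies above its blue point with no overlap of the bars, whereas Btg1 in myeloid cells runs the other way, at 536 and 1096 CPM.

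Fkbp5 had a higher level in the allogeneic than in the syngeneic library in each of the 5 cell types, on few UMIs in Foxp3+ T cells. In CD4 T cells it had 137 UMIs (156 CPM, 131 to 185) in the allogeneic library and 80 UMIs (13.6 CPM, 10.8 to 16.9) in the syngeneic library, an 11.5-fold difference (log2 3.53, 3.12 to 3.94). CD8 T cells had 125 and 15.8 CPM (log2 2.98), and Foxp3+ T cells had 111 and 14.1 CPM from 32 and 13 UMIs. B cells had 177 and 10.7 CPM, which is 16.5-fold higher (log2 4.04, 3.57 to 4.52). The myeloid gate had 86.4 and 16.1 CPM (log2 2.42, and 0.74 with each cell weighted equally). Within each library the levels of neighbouring cell types overlapped in their intervals, from B cells down to myeloid cells in the allogeneic library. The spread between cell types was 2.04-fold (allogeneic) and 1.5-fold (syngeneic). In the T and B cell types the gap between the libraries thus exceeded the gaps between cell types.

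Tsc22d3 differed most between the libraries in B cells, where its order among the cell types turned. In B cells it had 679 UMIs (1187 CPM, 1099 to 1280) in the allogeneic library and 325 UMIs (54.5 CPM, 48.7 to 60.7) in the syngeneic library, a 21.8-fold difference (log2 4.45, 4.25 to 4.64). B cells thus held the highest level of the 5 types in the allogeneic library and the lowest in the syngeneic one, although the syngeneic interval of B cells overlapped that of Foxp3+ T cells. In CD4 T cells it had 834 and 131 CPM (log2 2.68, 2.53 to 2.82), in CD8 T cells 630.0 and 96.3 CPM (log2 2.71, 2.60 to 2.82), and in Foxp3+ T cells 672 and 65.9 CPM (log2 3.35). The myeloid gate had 213 and 67.8 CPM (log2 1.65).

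Dusp1 also had its greatest ratio in B cells when all gated cells were used. There it had 61 UMIs (107 CPM, 81.6 to 137) in the allogeneic library and 31 UMIs (5.2 CPM, 3.53 to 7.38) in the syngeneic library, 20.5-fold higher (log2 4.36, 3.71 to 5.03). With cells of at least 3447 UMIs alone, which leaves 26 allogeneic B cells, the log2 ratio was 2.35 and no longer the greatest. CD4 T cells then also had 2.35, and Foxp3+ T cells had 2.69 or more under every setting. Foxp3+ T cells had 152 and 18.4 CPM, and CD4 T cells 58.3 and 9.83 CPM. CD8 T cells had the lowest allogeneic level, 19.1 and 6.11 CPM (log2 1.64, 1.04 to 2.21). That value turned to -0.43 when 20% of the allogeneic UMIs were taken to be free RNA with the profile of the whole library, an alternative chosen after seeing the data. The myeloid gate held the highest level in both libraries, 235 and 34.4 CPM, with intervals that overlapped those of Foxp3+ T cells. Within it, 45 allogeneic cells with a UMI of a complement C1q gene, which marks macrophages, had 591 CPM and 9 such syngeneic cells had 88.2 CPM.

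The transcription factor genes Klf9 and Klf13 went apart in size. Klf9 had 37 UMIs (42.3 CPM) in allogeneic and 22 UMIs (3.73 CPM) in syngeneic CD4 T cells, 11.3-fold higher (log2 3.50, 2.70 to 4.33), and in B cells 41 UMIs (71.7 CPM) and 38 UMIs (6.37 CPM; log2 3.49). CD8 T cells had the lowest Klf9 level in both libraries, at 24.4 and 2.57 CPM, and Foxp3+ T cells the highest, at 118 and 13.0 CPM from 34 and 12 UMIs, with intervals of neighbouring types that overlapped. Klf13 had 608 CPM (557 to 662) and 291 CPM (278 to 306) in CD4 T cells, a 2.09-fold difference (log2 1.06, and 0.99 under median-of-ratios scaling). The difference was 1.91-fold in CD8 T cells (530.5 and 277 CPM), 1.97-fold in Foxp3+ T cells (443 and 225 CPM) and 2.57-fold in B cells (378 and 147 CPM). Its levels came in the same order in both libraries, CD4 T, CD8 T, Foxp3+ T, B and myeloid. In the allogeneic library the intervals of neighbours in that order overlapped.

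Txnip and Btg1, the pair linked to quiescence, also differed in size. Txnip had 1159 UMIs (1324 CPM, 1249 to 1402) in allogeneic and 1226 UMIs (208 CPM) in syngeneic CD4 T cells, a 6.37-fold difference (log2 2.67, 2.55 to 2.79). Foxp3+ T cells were close to that at 1371 and 156 CPM (log2 3.14), while CD8 T cells had 743 and 179.8 CPM (log2 2.05) and B cells 652 and 116 CPM (log2 2.49). The myeloid gate had the lowest level in both libraries, 149.9 and 103 CPM (log2 0.54, 0.10 to 0.97), although the syngeneic interval overlapped that of B cells. Btg1 was counted most often of the 9 genes, with 1799 UMIs (2055 CPM) in allogeneic and 6347 UMIs (1076 CPM) in syngeneic CD4 T cells, and its ratios were small. The Btg1 difference was 1.91-fold for CD4 T (log2 0.93, 0.86 to 1.01), 1.53-fold for CD8 T (1444 and 944 CPM), 2.2-fold for Foxp3+ T (2105 and 959 CPM) and 2.27-fold for B cells (2823 and 1245 CPM). In the myeloid gate it was lower, with 536 CPM in allogeneic and 1096 CPM in syngeneic cells (log2 -1.03, -1.22 to -0.84).

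Bbc3 was higher in all 3 allogeneic T cell types and Bcl2l11 in CD4 T, CD8 T and B cells. Bbc3 had 197 UMIs (225 CPM, 195 to 259) in allogeneic and 117 UMIs (19.8 CPM, 16.4 to 23.8) in syngeneic CD4 T cells, 11.3-fold higher (log2 3.50, 3.17 to 3.85). CD8 T cells had 181 and 32.1 CPM (log2 2.49, 2.29 to 2.69) and Foxp3+ T cells 128 and 22.7 CPM (log2 2.50, 1.69 to 3.34). CD8 T cells, the highest type in the syngeneic library, were below CD4 T cells in the allogeneic library, with intervals that overlapped there. B cells had the lowest level in both, 16 UMIs (28 CPM) and 27 UMIs (4.53 CPM), overlapping the myeloid gate in the allogeneic library. With 20% free RNA subtracted the log2 ratio in B cells was -1.55, so no direction is read from it. Bcl2l11 had 54 UMIs (61.7 CPM) and 94 UMIs (15.9 CPM) in CD4 T cells (log2 1.95, 1.44 to 2.45), and 89 UMIs (47.1 CPM) and 272 UMIs (17.5 CPM) in CD8 T cells (log2 1.43, 1.07 to 1.78). Foxp3+ T cells had 100.4 and 15.1 CPM from 29 and 14 UMIs, and B cells 45.4 and 14.4 CPM. In the myeloid gate neither gene's interval excluded equal levels: Bbc3 had 38.8 and 30.1 CPM and Bcl2l11 17.6 and 11.8 CPM.

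**Figure D2:**
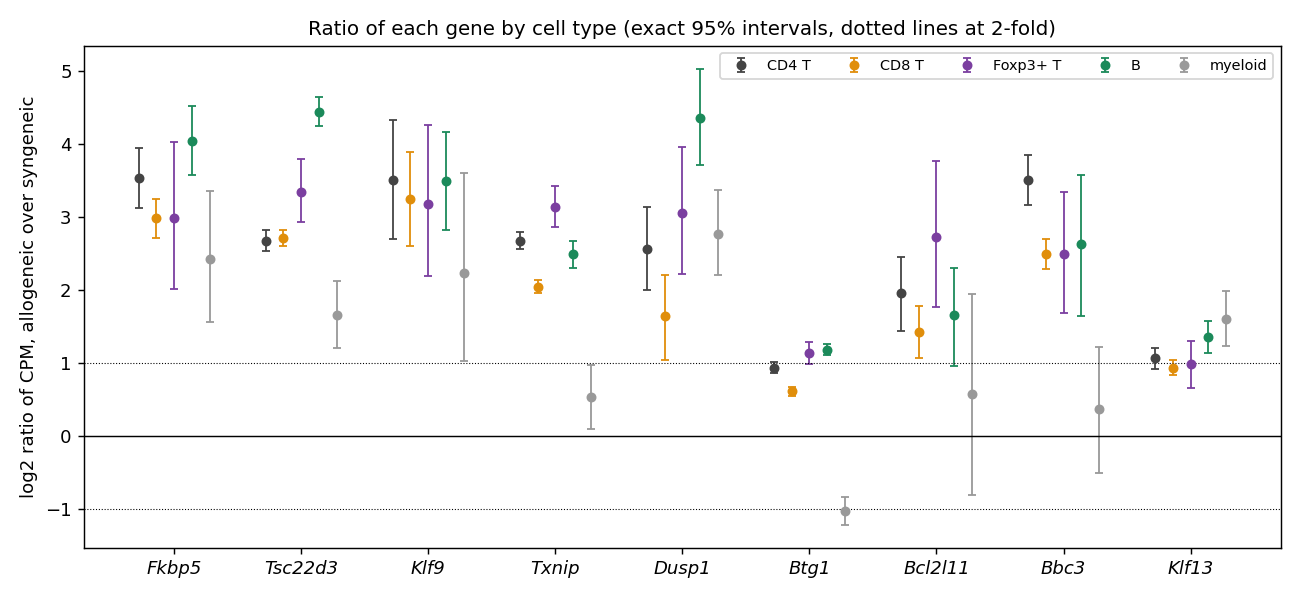
Log2 ratio of CPM, allogeneic over syngeneic, of each gene in 5 cell types, with exact 95% intervals for counting error and dotted lines at 2-fold. Fkbp5 and Klf9 lie above 2 in all cell types, Btg1 lies between 0.61 and 1.13 in the T cell types, and Tsc22d3 and Dusp1 are highest in B cells. Dusp1 loses that lead with cells of at least 3447 UMIs alone.

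The members were then set beside all genes of the same cells. A gene was counted as higher where it reached 50 UMIs across the libraries in that cell type, a ratio of at least 2-fold and an interval that excluded equal levels. In CD4 T cells 8 of 9 members were higher, where 7.04% of 7685 measured genes were higher and 3.76% lower, with Btg1 the exception. In CD8 T cells 7 of 9 were higher, where 6.75% of 9196 genes were higher and 4.12% lower, and Btg1 and Klf13 were not. In Foxp3+ T cells 6 members reached the 50 UMIs and 5 of them were higher (7.02% of 3278 genes were higher and 5.34% lower), and Fkbp5, Klf9 and Bcl2l11 stayed below it. In B cells all 8 members that reached it were higher (8.33% of 7800 genes were higher and 8.44% lower), and Bbc3 stayed below. Nothing is read from these counts, since the same ratios chose the members. The median log2 ratio of the 9 genes was 2.67 in CD4 T, 2.05 in CD8 T, 2.98 in Foxp3+ T and 2.63 in B cells, beside medians over all genes of 0.07, 0.04, 0.01 and -0.05. The 8 genes without Btg1 summed to 3309 CPM in allogeneic and 693 CPM in syngeneic CD4 T cells, 2299 and 628 CPM in CD8 T cells, 3096 and 530 CPM in Foxp3+ T cells and 2645 and 359 CPM in B cells.

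**Figure D3:**
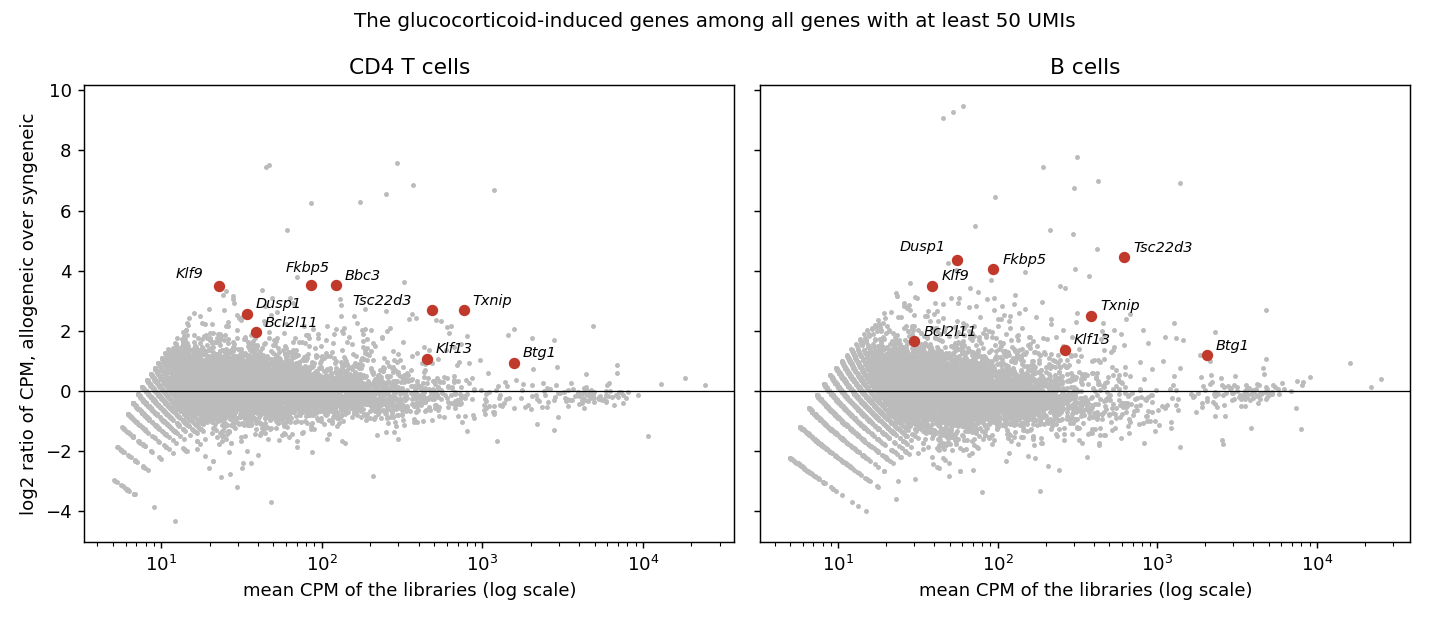
Log2 ratio of CPM, allogeneic over syngeneic, against mean CPM (log axis) for genes that reached 50 UMIs across the libraries in CD4 T cells (left) and B cells (right), with the glucocorticoid-induced genes in red and genes at 0 UMIs in either library left out. Fkbp5 at 3.53 in CD4 T cells and Tsc22d3 at 4.45 in B cells lie at the upper edge of the cloud around 0, below a few genes with ratios over 5.

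The myeloid gate held different cells in the libraries, and its ratios compare those mixtures. The 7 neutrophil markers summed to 164525 CPM in its allogeneic cells and 15.1 CPM in its syngeneic cells, and the plasmacytoid dendritic markers to 168 and 2842 CPM. Of the 102 allogeneic cells 61 had under 1000 UMIs. The median over all genes was -0.33, and 12.7% of 3600 genes were higher and 23.7% lower. Among the 7 members with 50 UMIs, Fkbp5, Tsc22d3, Dusp1 and Klf13 were higher, Btg1 was lower, and Txnip and Bbc3 were neither. With each cell weighted equally the log2 ratio was 0.74 for Fkbp5, 0.56 for Klf13 and -0.52 for Btg1, all under 2-fold, and the 61 shallow allogeneic cells held 0 UMIs of Fkbp5. How far the makeup of the gate accounts for these ratios was not tested.

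To give each cell the same number of UMIs, cells were thinned at random to 1000 UMIs. The UMIs of the 8 genes without Btg1 were then summed per cell. Thinning does not equalise which cells the libraries kept, and the barcode lists began at 150 and 3447 UMIs. The sum also fell with the depth of the cell before thinning (r = -0.24 in allogeneic CD8 T cells). The part of cell choice in these sums was not tested. CD4 T cells then held 3.50 ± 2.10 of these UMIs per allogeneic cell (SD over 245 cells, median 3) and 0.705 ± 0.855 per syngeneic cell (1171 cells, median 1). The share of cells with none of them was 4.90% (2.56 to 8.4%) in allogeneic and 48.8% (45.9 to 51.7%) in syngeneic CD4 T cells. In CD8 T cells this share was 12.8% and 52.6%, in Foxp3+ T cells 8.86% and 56.1%, and in B cells 10.7% and 69.6%. At least 3 different members appeared in 38.4% of allogeneic and 1.28% of syngeneic CD4 T cells, and in 31.2% and 0.0973% of B cells. The medians, and not the upper tail alone, lay higher in the allogeneic library in CD8 T, Foxp3+ T and B cells too, at 2, 3 and 3 UMIs, against 0 in each of these syngeneic types. The variance of the sum was 1.26 to 1.76 times its mean in allogeneic lymphocyte gates and 1.02 to 1.08 times in syngeneic ones. A value of 1 is that of random counting alone. At a given spread relative to the mean, this ratio rises with the mean, which was higher in the allogeneic cells. It therefore gives no comparison of spread between the libraries.

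**Figure D4:**
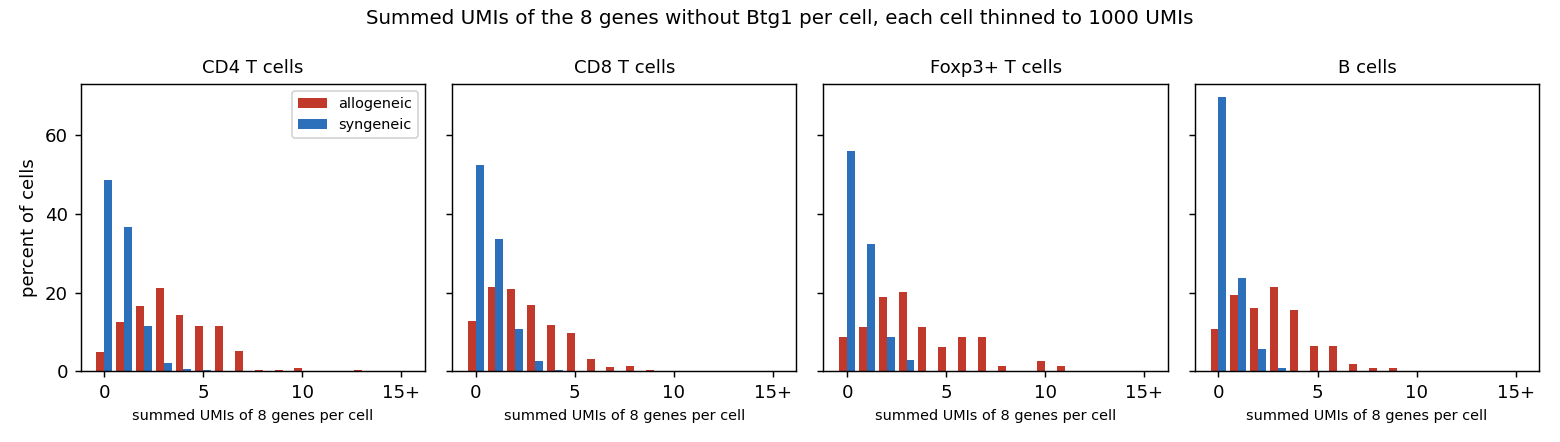
Percent of cells by the summed UMIs of the 8 genes without Btg1, with each cell thinned to 1000 UMIs, in 4 lymphocyte types of the allogeneic (red) and the syngeneic library (blue). Syngeneic cells pile up at 0 (48.8% in CD4 T and 69.6% in B cells), and allogeneic cells spread around medians of 2 to 3.

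The single genes named here followed the same pattern at equal depth, apart from Bbc3 in B cells. Tsc22d3 had a UMI in 55.5% of allogeneic and 12.6% of syngeneic CD4 T cells after thinning (87.0% and 44.6% unthinned), and in 64.9% and 5.45% of B cells (88.1% and 25% unthinned). Txnip had one in 72.7% and 19.7% of CD4 T cells (94.9% and 60.6% unthinned), and Fkbp5 in 15.9% and 1.20% (38.7% and 5.72% unthinned). Bbc3 was seen in 24.1% and 2.0% of CD4 T cells (50.6% and 8.63% unthinned). In B cells its shares were 1.46% (0.303 to 4.22%) and 0.389% (0.106 to 0.993%), or 7.34% and 2.33% unthinned. The thinned shares rest on 3 and 4 B cells with intervals that overlapped, so no direction is read from them. None of the cell types is known to lack these genes, so no share of background could be set from a silent type. Bbc3 gives the nearest such value, since its allogeneic share in B cells was well under that in CD4 T cells of the same library.

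Co-expression between single cells was weak. Over the 36 pairs of members, after thinning to 1000 UMIs, the median Pearson correlation was 0.0038 in 245 allogeneic CD4 T cells and -0.0049 in 1171 syngeneic ones. It was 0.041 and -0.0023 in CD8 T cells (429 and 2704 cells) and 0.040 and -0.0066 in B cells (205 and 1028 cells). The highest pair was Tsc22d3 and Dusp1 in allogeneic B cells, with r = 0.18 and UMIs of both in 23 cells, where 16.9 cells would hold both if the genes were seen independently. Tsc22d3 and Txnip had r = 0.13 in allogeneic CD8 T cells and 0.11 in allogeneic CD4 T cells. At 2000 UMIs the allogeneic B cell median was 0.092 in 157 cells. Counts this sparse pull correlations towards 0, the cells of a library share that library, and these values are no finding. The Foxp3+ T and myeloid gates had fewer than 100 allogeneic cells of at least 1000 UMIs (79 and 41) and were left out. In allogeneic B cells the 8-gene sum went with the summed UMIs of other glucocorticoid-induced genes (r = 0.44, against 0.016 in syngeneic B cells), whereas in CD4 T cells r was 0.048 and 0.026. With FOXO target genes r was 0.22 in allogeneic B cells and 0.18 in allogeneic CD4 T cells, and with other Krüppel-like factors it was 0.083 and 0.22. The sum also went with the depth of the cell before thinning (r = -0.21 and -0.12 in the same cells, and -0.24 in allogeneic CD8 T cells). These are descriptions, among 16 relations computed per cell type and library.

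The receptor gene differed little in CD4 T, CD8 T and B cells. Nr3c1, which encodes the glucocorticoid receptor, had 74.2 CPM in allogeneic and 57.6 CPM in syngeneic CD4 T cells (log2 0.37), with log2 ratios of 0.14 in both CD8 T and B cells. Foxp3+ T cells differed, at 169.7 and 51.9 CPM from 49 and 48 UMIs (log2 1.71). Of 20 genes listed for the receptor, its chaperones, cofactors and hormone-converting enzymes, 18 were measured in CD4 T cells, 0 were higher and 2 were lower, with a median log2 of -0.01 beside 0.07 over all genes. The lower ones were Cdc37, an HSP90 co-chaperone for kinases, at 64.0 and 202 CPM, and Hsd11b1, which makes active hormone from its inert form, at 27.4 and 63.4 CPM. Hsp90aa1 and Hsp90ab1 had 187 and 292 CPM, and 410.1 and 751 CPM. Both were past 2-fold lower in B cells (log2 -1.28 and -1.74) and in Foxp3+ T cells (log2 -1.22 and -1.27). In Foxp3+ T cells 2 of 14 listed genes were higher and 5 lower (median log2 -0.72 beside 0.01 over all genes). Of 18 listed genes 0 were higher in CD8 T and in B cells, and 2 and 3 were lower. Hsd11b1 was higher in the myeloid gate, which held different cells in the libraries, at 175 and 10.8 CPM (log2 4.02).

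Other genes that glucocorticoids are known to induce went the same way in part. Of 37 listed, 19 were measured in CD4 T cells and 9 were higher and 0 lower, with a median log2 of 0.86 beside 0.07 over all genes. The counts were 10 of 23 in CD8 T cells (median 0.65), 5 of 11 in Foxp3+ T cells (0.94) and 8 of 18 in B cells (0.96), again with 0 lower. Over all genes 7.04% were higher in CD4 T, 6.75% in CD8 T, 7.02% in Foxp3+ T and 8.33% in B cells. In the myeloid gate 7 of 18 were higher and 5 lower, beside 12.7% and 23.7% of all genes. The higher ones there include Lcn2, also a neutrophil marker, with 2184 and 0 UMIs. Zfp36l2, which encodes a protein that hastens mRNA decay, had 624 and 106 CPM in CD4 T cells (log2 2.55), and 701 and 49.6 CPM in B cells (log2 3.82). Pik3ip1, an inhibitor of PI3 kinase, had 861 and 170.0 CPM in CD4 T cells and 806 and 30.7 CPM in B cells. Nfkbia, the inhibitor of NF-kB, had 975 and 258 CPM in CD4 T cells, and Il7r, a survival receptor chain of resting T cells, 673 and 262 CPM. Cxcr4, a homing receptor, had the greatest ratio of the list in CD4 T cells (50.3 and 6.10 CPM, log2 3.04). Sgk1, a kinase gene widely used as a hormone marker and named here after its values were seen, had 75.4 and 65.8 CPM in CD4 T cells (log2 0.20). Per1, a clock gene that the hormone induces and likewise named afterwards, had 20.1 and 2.70 CPM in CD8 T cells (log2 2.90), and in CD4 T cells 24.0 and 4.07 CPM from 21 and 24 UMIs.

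Genes that glucocorticoids are known to repress were mostly too low to measure. In CD4 T cells 4 of 25 reached 50 UMIs, of which 2 were higher and 1 lower. Tnf, an inflammatory cytokine, had 3.43 and 16.4 CPM from 3 and 97 UMIs (log2 -2.26, -4.57 to -0.67). Its allogeneic count stands at the floor of 3 UMIs. Il2, a T cell growth factor, had 56.0 and 21.4 CPM (log2 1.39) and Icam1, an adhesion molecule, 42.3 and 13.7 CPM (log2 1.62). Ccl5, a chemokine, had 126 and 73.4 CPM (log2 0.78). In CD4 T cells this list thus held genes on both sides, with the lower side resting on 3 allogeneic UMIs of Tnf. In CD8 T cells 3 of 7 measured genes were higher and 1 lower, and in B cells 2 of 5 higher and 1 lower. The lower gene in B cells was Ccl5, at 19.2 and 66.9 CPM from 11 and 399 UMIs (log2 -1.80). Ccl5 was also the 1 gene measured in Foxp3+ T cells, and was lower (log2 -1.95, from 5 and 62 UMIs). The myeloid gate, with its different cells, had 2 of 7 higher and 4 lower.

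The relatives of the 9 genes were compared as well, since a family shares sequence and function. None of the 6 measured FKBP relatives of Fkbp5 was past 2-fold in CD4 T cells, with a median log2 of -0.52, and Fkbp4, the co-chaperone that acts against it, had 52.5 and 81.5 CPM (log2 -0.63). The TSC22 relatives of Tsc22d3 lay between -0.05 and 0.56. Among Krüppel-like factors 1 of 6 was higher, Klf10 at 32.0 and 8.48 CPM, while Klf2, which sustains lymphocyte recirculation, had 1294 and 862 CPM (log2 0.59). Arrdc4, an alpha-arrestin that like Txnip follows glucose, had 50.3 and 8.81 CPM in CD4 T cells (log2 2.51), near the Txnip ratio. Of 8 DUSP phosphatases Dusp2 was higher (399 and 159 CPM) and Dusp19 lower (2.28 and 11.9 CPM). Dusp19 rested on 2 and 70 UMIs, the first under the floor of 3 UMIs. None of 4 BTG and TOB genes passed 2-fold. In the BCL2 family 1 of 10 was higher, Bid at 20.6 and 9.66 CPM, and the survival gene Bcl2 had 939 and 485 CPM (log2 0.95). In B cells Bmf, another BH3-only gene named after its values were seen, had 33.2 and 5.53 CPM (log2 2.59).

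**Figure D5:**
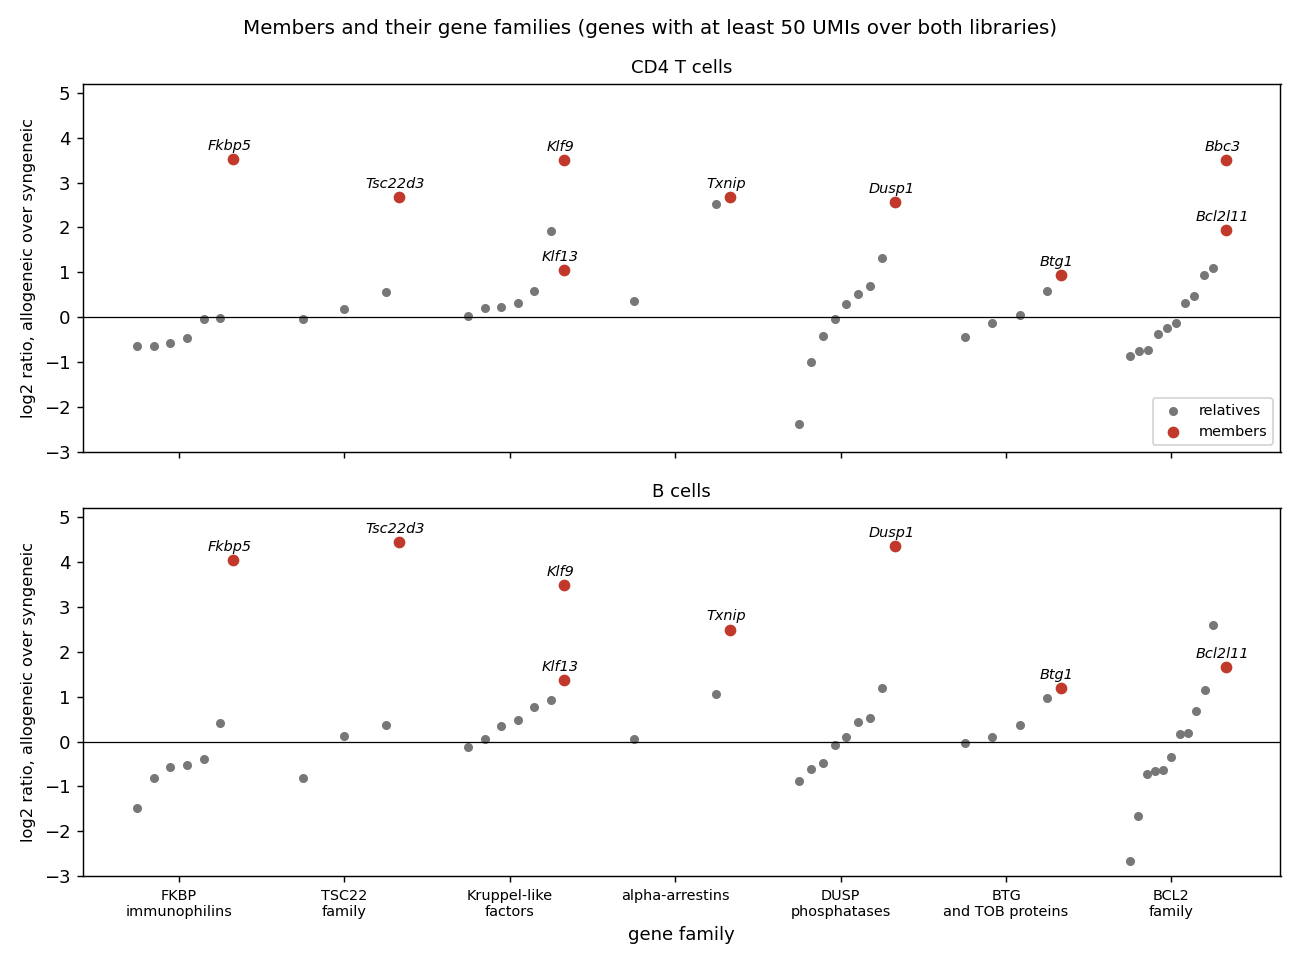
Log2 ratios, allogeneic over syngeneic, of the members (red, labelled) and of the measured relatives in 7 gene families (grey), in CD4 T cells (top) and B cells (bottom). Fkbp5 and Tsc22d3 stand well above their relatives, whereas Arrdc4 lies beside Txnip at 2.51 in CD4 T cells, and Bbc3 is not drawn in B cells, where it had under 50 UMIs.

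Lists of other signals that reach these genes were counted in the same way. Of 8 measured p53 target genes other than Bbc3, 0 were past 2-fold in CD4 T cells (median log2 -0.22) and 0 of 8 in B cells. In Foxp3+ T cells 3 of 7 were higher, which are Mdm2, Rrm2b and Fas. Of 13 FOXO target genes 2 were higher in CD4 T cells (Il7r and Pik3ip1, which the hormone list also holds), with a median log2 of 0.34. In B cells 5 of 13 were higher and 1 lower (median 0.62). In Foxp3+ T cells 2 of 9 were higher (median 0.80) and in CD8 T cells 1 of 13 (median 0.21), with 0 lower in both. Of 13 immediate early and dissociation genes 2 were higher and 2 lower in CD4 T cells (median 0.43), led by the cytokine signal inhibitor Socs3 at 269.6 and 47.6 CPM and the AP-1 subunit Junb at 485 and 159 CPM. In B cells 4 of 13 genes of this list were higher and 3 lower (median 0.28). The counts were 3 of 14 higher and 1 lower in CD8 T cells, and 2 of 8 higher and 0 lower in Foxp3+ T cells. In CD4 T cells 0 of 7 clock genes were higher and 2 lower, Dbp at 10.3 and 25.4 CPM and Rora at 9.14 and 20 CPM (median 0.25). In CD8 T cells 2 of 9 clock genes were higher and 0 lower (median 0.63), and in B cells 1 of 7 higher and 0 lower (median 0.81). Type I interferon genes had 11 of 14 higher in CD4 T cells (median 1.89), with Ifit3 at 228 and 21.5 CPM, and 15 of 16 in B cells (median 2.83). What part any of these signals had in the members' levels was not tested.

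Free RNA and damaged barcodes of the allogeneic library also carried these transcripts. Barcodes with fewer than 200 genes, whose UMIs were 64.4% haemoglobin, had Fkbp5 at 66.0 CPM (36 UMIs) and Tsc22d3 at 231 CPM (126 UMIs). Over their UMIs without haemoglobin, Fkbp5 stood at 185 CPM (129.8 to 257), Tsc22d3 at 649 CPM (540.2 to 772) and Bbc3 at 216 CPM (156 to 292), within or near the range of the gated T and B cells. The part of free RNA in the gated values was not tested beyond the subtractions. Barcodes above 10% mitochondrial UMIs with at least 200 genes had 223.8 CPM of Fkbp5 (162 to 301) and 130.1 CPM of Klf9 (84.2 to 192, from 25 UMIs), with intervals that overlapped those of B cells and Foxp3+ T cells. Their Tsc22d3 level was 484 CPM. T cells without a narrower gate had Fkbp5 at 168.8 CPM and Tsc22d3 at 751 CPM in the allogeneic library, and 13.4 and 105 CPM in the syngeneic library. Their Fkbp5 intervals overlapped those of CD4 T cells in both libraries. Their Tsc22d3 level lay between those of CD8 T and CD4 T cells. With 20% of the allogeneic UMIs subtracted as free RNA of the whole library's profile, 8 members were higher in CD4 T, 6 in CD8 T, 5 in Foxp3+ T and 8 in B cells, with median log2 ratios of 2.71, 1.98, 2.88 and 2.37. The share of all genes that were higher under this setting is not given here, so nothing is read from these counts.

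Over the 10 sums of 5 cell types in 2 libraries, genes with a similar profile were named among 2612 genes, with log2(CPM + 10) as the scale. Fkbp5 was most like Gm9843 and the haemoglobin genes Hbb-bs and Hba-a1 (r = 0.98 each), whose level in CD4 T and B cells was also higher in the allogeneic library (log2 6.68 and 6.93 for Hbb-bs, and 2.33 and 2.54 for Gm9843). Tsc22d3 was most like Zfp36l2 (r = 0.98), Klf9 like Csnk1d (0.97), Bcl2l11 like Txnip (0.98), Txnip like Gstp1 (0.97), Bbc3 like Polr3gl (0.94), Dusp1 like Lrch4 (0.93), Btg1 like Prpf38b (0.99) and Klf13 like Gm10073 (0.97). The points come in equal number from both libraries, so a gene that differs between the libraries in all types resembles any other such gene.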

How the data were processed

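The matrices that the authors deposited hold unnormalised UMI counts, whole numbers by gene and barcode. The submitters' processing notes name Cell Ranger 2.2.0, STAR, Seurat 2.3.4 and mm10, with no role or order. The sources used here do not give how barcodes were selected. The 9 genes, the gene lists and the cell type markers were chosen with earlier results of these data known.

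Cells were barcodes that showed 200 or more genes and no more than 10% of mitochondrial UMIs. A cell was T, B or myeloid with at least 2 marker UMIs of that lineage, at least 80% of all lineage marker UMIs and at most 5% haemoglobin UMIs. T cells were CD4 (Cd4 seen, no Cd8a, Cd8b1 or Foxp3), CD8 (Cd8a or Cd8b1 seen, no Cd4 or Foxp3) or Foxp3+ (Foxp3 seen, no Cd8a or Cd8b1). Gates kept 1091 of 2106 allogeneic cells and 5152 of 7957 syngeneic cells. Cells of mixed lineage were left out, and no doublet caller was used, since Scrublet in scanpy 1.11.5 marked 15 allogeneic and 0 syngeneic cells. UMIs were summed per gate, and CPM with exact Poisson intervals and ratios with exact conditional binomial intervals were computed in scipy 1.17.1, with code tested on simulated data. The floor of 3 UMIs corresponds to 3.43 CPM in allogeneic and 0.509 CPM in syngeneic CD4 T cells. PCR, free RNA and cell choice add error that these intervals do not cover. Named were all 9 genes, up to 4 genes of each list with the highest CPM in CD4 T cells and the highest and lowest past 2-fold there; others were named after their values were seen. Alternatives changed the scaling, the cell filter, the gate, depth, doublet scores and free RNA. Promoters came from RefSeq, loci from the GRCm38 annotation.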

Additional observations from a re-analysis of the deposited data

Results flagged for a closer look

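Btg1 differed in direction between cell types. Its log2 ratio, with the syngeneic library as denominator, reached 0.93 (CD4 T), 0.61 (CD8 T), 1.13 (Foxp3+ T) and 1.18 (B cells), but was -1.03 in myeloid cells (-0.52 with each cell weighted equally). The difference between cell types was not tested. The myeloid gate had neutrophil markers at 164525 CPM in the allogeneic and 15.1 CPM in the syngeneic library.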

How the results depend on the processing

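No paired analysis was possible because each group had 1 library, and for the same reason no library could be left out. Of 491 values of single members under other settings, 452 moved by less than their counting interval and 38 by more. The 38 were unevenly spread, with 14 of 45 values for cells of at least 3447 UMIs and 9 of 42 when thinned to 1000 UMIs. Equal weight for each cell moved 8 of 45, 20% free RNA subtracted 6 of 44 and median-of-ratios scaling 1 of 45. Each of the remaining settings moved 0 of 45. In addition, 1 member counted as higher turned its sign: Dusp1 in CD8 T cells was -0.43 with 20% free RNA subtracted, chosen after seeing the data. Among values not counted as higher, the same setting gave -1.55 for Bbc3 in B cells, and -1.04 for Bbc3 and -0.23 for Bcl2l11 in myeloid cells. That setting also gave 2 higher members and a median log2 of 0.66 in myeloid cells. With cells of at least 3447 UMIs, the median log2 was 2.50 in CD4 T and 1.87 in CD8 T cells, and 2 members were higher in Foxp3+ T (32 allogeneic cells) and 3 in B cells (26 allogeneic cells). Thinned to 1000 UMIs, the CD4 T median was 3.06, and 5 members were higher in CD4 T, 3 in Foxp3+ T, 3 in B and 0 in myeloid cells. Both settings leave fewer UMIs against the minimum of 50, but some ratios also came under 2-fold: Klf13 (0.89) and Btg1 (0.79) in B cells of at least 3447 UMIs, and Btg1 (0.79) in thinned Foxp3+ T cells. Shares of all genes under these alternative settings are not given here, so nothing is read from the counts of higher members. With no minimum, 7.72% of genes were higher in myeloid cells. The measured free RNA share was 0.555 to 0.682%, from barcodes rich in haemoglobin, so it may be low.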
